A study of Apera spica-venti with 32 samples.

Results

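Features named for the ubiquitin and proteasome pathway were followed in leaves of the grass weed Apera spica-venti (silky windgrass) after a spray of the herbicide pinoxaden. They were found by words in the authors' descriptions (ubiquitin, F-box, proteasome, RING-H2, RING finger, U-box, cullin and speckle-type POZ), leaving out descriptions of ribosomal fusions, ubiquinone and autophagy. The search gave 141 of the 7967 described features, out of 39590 features counted. A feature is a reading frame on an assembled contig, and the 141 lie on 136 contigs. By description they were 55 RING-type or other ligases, 46 F-box proteins, 9 proteasome subunits, 8 U-box ligases, 4 conjugating enzymes, 4 features named for cullins, 5 deubiquitinases, 1 activating enzyme, 1 speckle-type POZ protein, 6 other ubiquitin-named features and 2 reading frames of the autophagy enzyme ATG7.

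The groups were sprayed and untreated plants of 2 populations resistant to multiple herbicides (R2 and R1) and of 2 susceptible ones (S2 and S1), with 4 libraries in each of the 8 groups. Pinoxaden, which blocks acetyl-CoA carboxylase and so fatty acid synthesis in grasses, was given once to young greenhouse plants, at a dose per ha of 45 g active ingredient. Leaves were frozen 8 h after it. Each library came from 3 plants, and ribosomal RNA was depleted. The labels name no mock spray and no separate harvest hour for untreated plants, so herbicide, formulation and hour cannot be told apart. Each class holds only 2 populations, so every comparison of classes describes these 4 populations.

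Ubiquitin is a small protein that cells attach to other proteins, often to mark them for breakdown. An activating enzyme (E1) loads it, a conjugating enzyme (E2) carries it, and a ligase (E3) chooses the target, while the proteasome degrades proteins that carry ubiquitin chains. F-box proteins are the target-binding parts of cullin-1 ligases, and proteins with a BTB/POZ domain serve cullin-3 ligases in the same way. In plants these ligases act in hormone, light and stress signalling.

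Library totals ran between 26213780 and 46062806 counts. The 141 features together held between 0.0706% and 0.117% of a library's counts, while 17 leaf mesophyll marker features (Rubisco and chlorophyll-binding proteins) held 22.7% to 27.0% and were detected in every library group. Of these markers 10 were called lower in sprayed resistant leaves and 16 in sprayed susceptible leaves, with nothing called higher. Their summed share of a library's raw total, without the scaling used for the calls, did not fall in every population. It averaged 24.1% in sprayed and 26.1% in untreated S1 leaves, but 25.1% in sprayed and 24.4% in untreated S2 leaves. In R2 and R1 the mean shares of sprayed and untreated leaves lay close together. The part of these markers in the results below was not tested. In RNA from whole leaves, fewer cells of a type and less RNA per cell cannot be told apart. The descriptions do not carry gene lengths, so levels are compared between groups and not between genes.

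Members were selected on measured values from these libraries. The authors described only features that their own analysis listed at an adjusted p under 0.05 in at least 1 of 4 comparisons, and all members met that. The authors' deposited table lists 49 members for the response of resistant plants, 116 for the response of susceptible plants, 10 for resistant against susceptible sprayed plants and 23 for the same comparison without spray. Just inside the threshold, the weakest member had 0.0498 as its smallest adjusted p in the authors' deposited table. Features just outside carry no description and were not analysed here. Values for these 4 comparisons are therefore given as descriptions with no test, and only differences between the populations of 1 class were tested.

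Sprayed leaves differed from untreated ones in both directions, and more members were called in susceptible than in resistant plants. Levels are CPM, counts brought to a common depth with TMM factors, and a feature is called when its adjusted p is under 0.05 in edgeR's quasi-likelihood fit over 25036 features. In resistant plants 30 of 139 fitted members were called higher and 14 lower after the spray, against a background of 9.14% of all features called (5.63% higher and 3.51% lower). In susceptible plants 62 were called higher and 47 lower, against 25.4% of all features (13.5% higher and 11.8% lower). Among described features, all of which the same data selected, 29.1% were called in resistant and 79.2% in susceptible plants, beside 31.7% and 78.4% of members. The median log2 fold change was 0.13 over members and -0.01 over all features in resistant plants, and 0.25 and -0.01 in susceptible plants. With library totals in place of TMM factors, the median of all features in the susceptible response moved to 0.30, and 79 members were called higher and 14 lower.

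Of the members, 33 were called in both responses, 23 of them higher in both and 10 lower in both, and no member was called in opposite directions. In each of the 4 populations 59 members had a positive spray response and 38 a negative one, so 97 of 139 kept 1 sign. Changes of over 2-fold were called for 16 members in resistant plants, 12 higher and 4 lower, and for 33 members in susceptible plants, 24 higher and 9 lower. These counts were not made over all features or over described ones. Since members were chosen on these same responses, nothing about the pathway is read from the agreement.

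**Figure D1:**
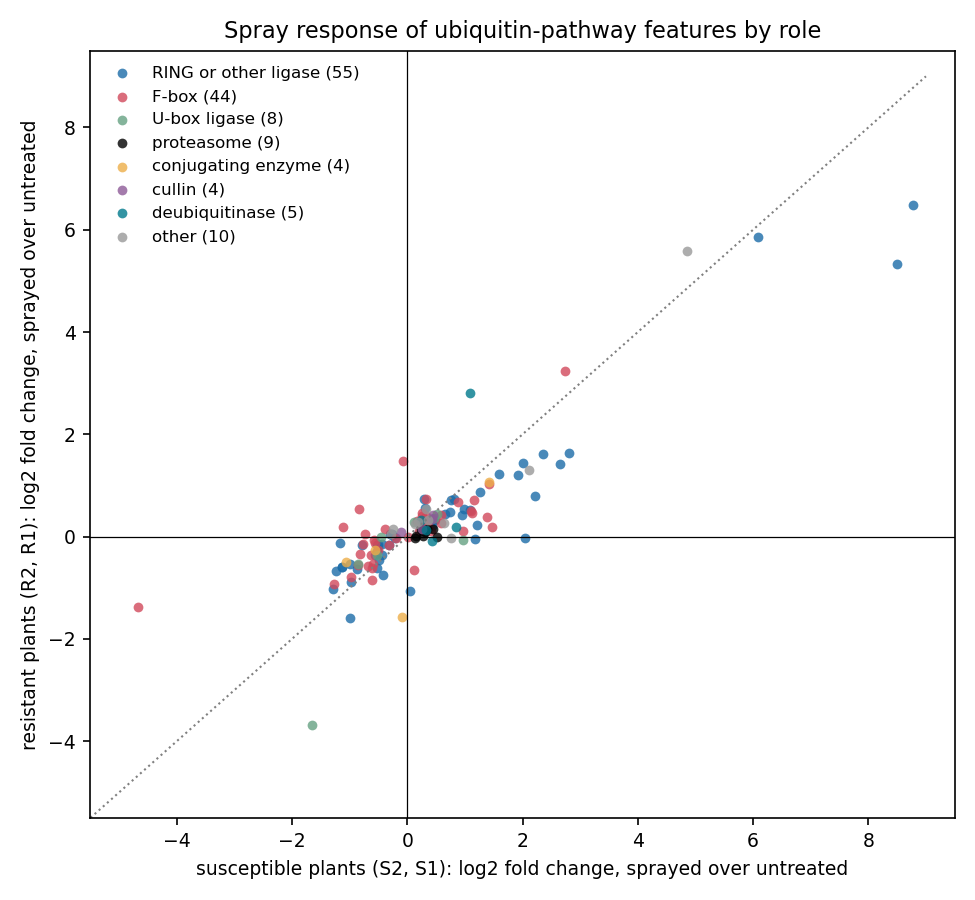
Each point is 1 of the 139 fitted members, placed by its log2 fold change (sprayed over untreated) in resistant plants on the vertical axis and in susceptible plants on the horizontal axis, coloured by role; the dotted line marks equal change. Most points lie to the lower left or upper right of the 0 lines, 3 ligases and 1 ubiquitin-like feature reach log2 changes above 4 in both classes, and the proteasome subunits sit near 0 in resistant plants.

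Polyubiquitin and the conjugating enzyme UBC28 were called higher after the spray in both classes. Polyubiquitin-A (TRINITY_DN621_c1_g1_i18.p1), which encodes ubiquitin units joined head to tail, had 3.95, 2.95, 2.12 and 3.57 CPM in sprayed R2 and 3.37, 1.63, 5.46 and 1.98 CPM in sprayed R1 leaves, against 0.90, 1.08, 1.30 and 1.5 CPM in untreated R2 and 1.30, 1.5, 1.40 and 1.22 CPM in untreated R1 leaves. In sprayed leaves of S2 it had 3.67, 5.13, 3.82 and 5.75 CPM and in those of S1 7.55, 6.69, 4.16 and 3.72 CPM, against 1.67, 0.988, 1.51 and 1.36 CPM in untreated S2 and 0.794, 1.60, 0.671 and 0.848 CPM in untreated S1 leaves. Every sprayed library of a class lay above every untreated one of that class, and the log2 fold change was 1.30 ± 0.22 (SE) in resistant and 2.11 ± 0.23 in susceptible plants.

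The conjugating enzyme UBC28 (TRINITY_DN1202_c0_g3_i1.p1) held a median of 32.1 CPM in sprayed and 15.6 CPM in untreated resistant leaves. Its response was positive in each population, at 0.87 ± 0.13 in R2, 1.25 ± 0.13 in R1, 1.27 ± 0.13 in S2 and 1.58 ± 0.13 in S1 on the log2 scale. The other 3 conjugating enzymes had negative log2 changes in both classes, 1 of them called in resistant and 2 in susceptible plants. The E2-23 kDa feature had medians of 2.63 CPM in sprayed and 3.50 CPM in untreated resistant leaves, and 3.00 CPM in sprayed and 6.09 CPM in untreated susceptible leaves. Its log2 change of -1.06 ± 0.17 in susceptible plants was called. Its -0.50 ± 0.17 in resistant plants was not called here, though the authors' deposited table lists that response. An E2 24 feature, whose Arabidopsis namesake PHO2 restrains phosphate uptake, showed -0.27 ± 0.10 in resistant and -0.56 ± 0.10 in susceptible plants, called in the second class. The activating enzyme E1 2 had a median of 7.18 CPM in sprayed and 5.71 CPM in untreated resistant leaves, and of 7.61 CPM in sprayed and 5.20 CPM in untreated susceptible leaves. Its log2 change was 0.27 ± 0.09, not called, in resistant and 0.63 ± 0.09, called, in susceptible plants.

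Ligases of the RING type included the largest increases among members. Of 55 fitted, 14 were called higher and 8 lower in resistant plants, and 27 were called higher and 23 lower in susceptible plants, which became 28 higher and 7 lower when libraries were scaled by their totals. An RDUF1-like ligase (TRINITY_DN9782_c0_g1_i2.p1), named for a RING domain beside a domain of unknown function, was close to silent before the spray. Its counts were 308, 126, 70 and 349 in sprayed R2 and 76, 100, 114 and 193 in sprayed R1 leaves, against 3, 0, 4 and 1 in untreated R2 and 0, 2, 1 and 2 in untreated R1 leaves. In sprayed S2 leaves there were 205, 158, 155 and 97 counts and in sprayed S1 leaves 122, 113, 211 and 263, against 0 in all 4 untreated S2 libraries and 2, 1, 0 and 1 in untreated S1 leaves. The groups did not overlap in any population, and scaled for depth the ratio was 99.0 (95% interval 57.7 to 186) in resistant and 317 (123 to 1160) in susceptible plants. These intervals cover counting error only.

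A pair of EL5-like ligases showed the same switch. EL5 in rice is a RING-H2 ligase induced by a chitin fragment that signals fungal attack. The first (TRINITY_DN16178_c0_g1_i13.p1) had 478 counts in the 8 sprayed and 10 in the 8 untreated resistant libraries, and 858 in the sprayed and 11 in the untreated susceptible libraries. The second (TRINITY_DN16178_c0_g2_i1.p1) had 186 counts in sprayed and 3 in untreated resistant leaves, a ratio of 59.7 (20.1 to 292), and 383 in sprayed against 0 in untreated susceptible leaves. With a floor of 3 counts over the untreated group, the second was at least 122-fold higher in sprayed susceptible leaves. Both come from 1 assembly cluster and may share reads.

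Another EL5-like feature (TRINITY_DN35216_c0_g2_i2.p1) moved in the opposite direction. It had 4.60, 4.76, 7.60 and 6.09 CPM in sprayed R2 and 7.45, 7.33, 6.35 and 6.64 CPM in sprayed R1 leaves, against 10.9, 7.34, 8.63 and 10.9 CPM in untreated R2 and 6.78, 12.4, 9.61 and 9.99 CPM in untreated R1 leaves. Sprayed S2 leaves had 5.0, 4.50, 6.10 and 4.80 CPM and sprayed S1 leaves 4.03, 3.51, 4.38 and 3.64 CPM, against 12.2, 5.71, 10.4 and 12.5 CPM in untreated S2 and 8.53, 8.64, 7.62 and 12.6 CPM in untreated S1 leaves. The ranges overlapped slightly in resistant plants and, through 1 untreated S2 library, in susceptible plants. The log2 change was -0.60 ± 0.15 in resistant and -1.13 ± 0.15 in susceptible plants, both called.

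**Figure D2:**
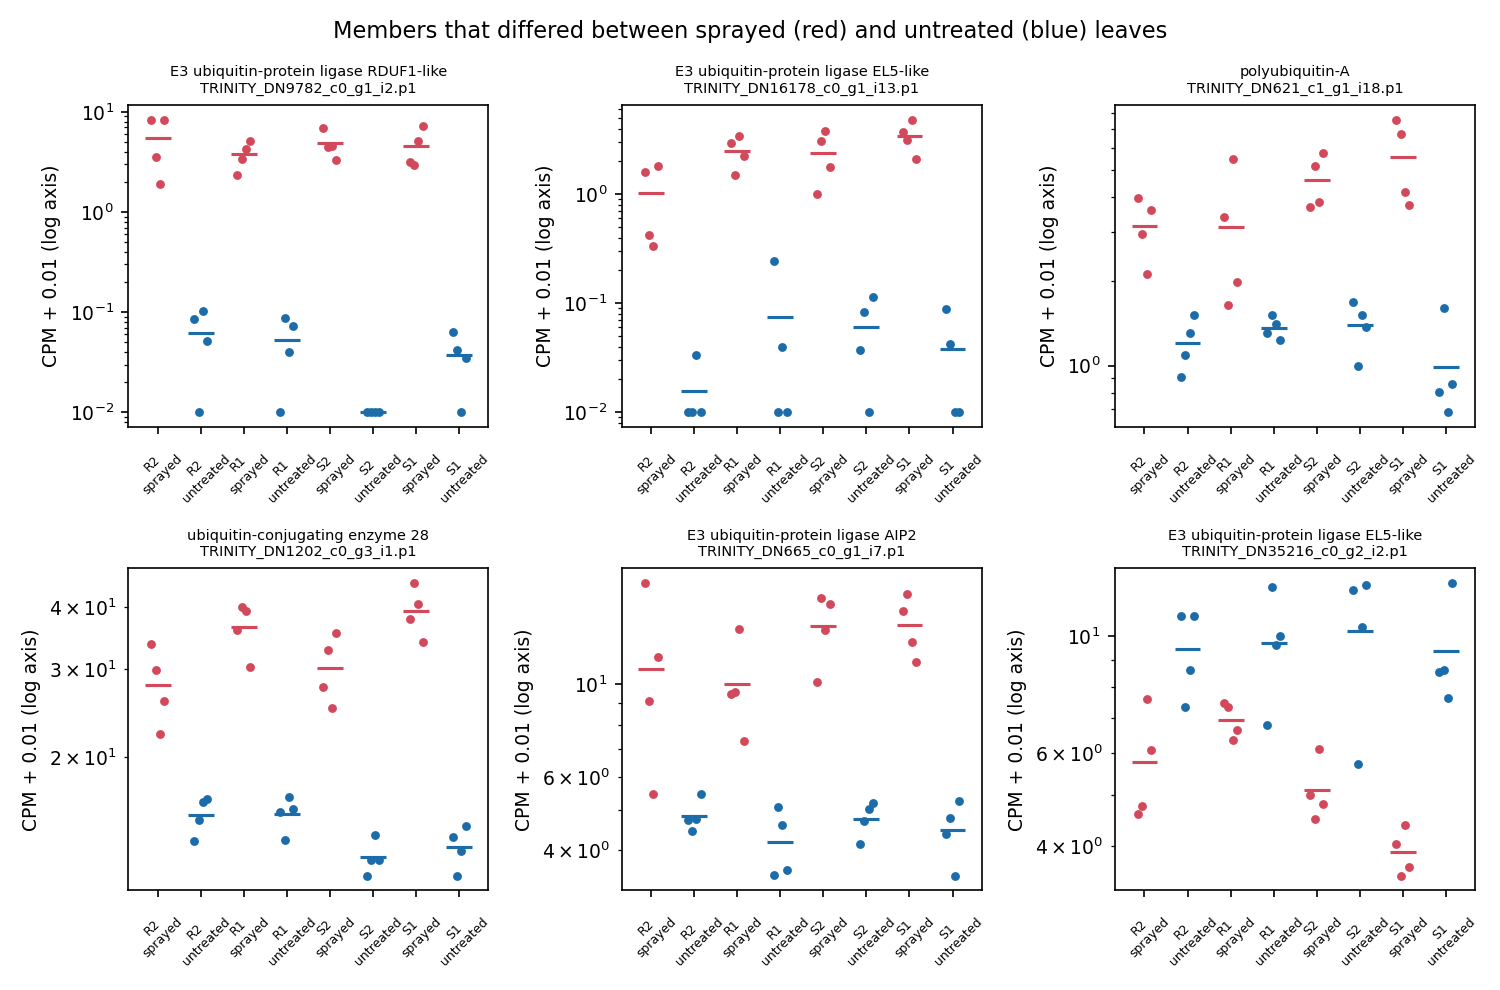
CPM plus 0.01 on a log axis for 6 members in every library, with sprayed leaves in red and untreated leaves in blue, 4 libraries per group and a bar at the group mean. In the first 5 panels sprayed libraries lie at or above the untreated ones of the same population, and in the last panel, an EL5-like ligase, most sprayed libraries lie below.

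AIP2, 3 RGLG features, ATL31-like and ATL3-like were called higher in both classes. AIP2, which in Arabidopsis targets the abscisic acid regulator ABI3, had medians of 9.51 CPM in sprayed and 4.66 CPM in untreated resistant leaves and 14.2 CPM in sprayed and 4.72 CPM in untreated susceptible leaves. Its log2 change was 1.22 ± 0.17 in resistant and 1.59 ± 0.17 in susceptible plants. The RGLG family, ligases that pair a RING domain with a copine domain, was represented by 3 features, all called higher in both classes. Of these, RGLG5-like and RGLG2 come from 1 assembly cluster and may share reads. RGLG5-like changed by 1.63 ± 0.39 in resistant and 2.80 ± 0.41 in susceptible plants, RGLG2-like by 1.41 ± 0.42 in resistant and 2.65 ± 0.43 in susceptible plants, and RGLG2 by 0.88 ± 0.13 in resistant and 1.26 ± 0.13 in susceptible plants. ATL31-like, whose Arabidopsis namesake acts in the carbon and nitrogen response, changed by 1.44 ± 0.36 in resistant and 2.01 ± 0.36 in susceptible plants, and ATL3-like by 1.62 ± 0.38 in resistant and 2.35 ± 0.39 in susceptible plants.

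XERICO was called lower in both classes, and RHA1A, KEG and UPL3-like were called lower in susceptible plants. XERICO, which raises abscisic acid levels in Arabidopsis, had medians of 2.91 CPM in sprayed and 4.68 CPM in untreated resistant leaves and 3.42 CPM in sprayed and 6.64 CPM in untreated susceptible leaves. The log2 change was -0.63 ± 0.15 in resistant and -0.88 ± 0.15 in susceptible plants, both called. RHA1A had the largest called decrease of its role in susceptible plants among features of at least 1 CPM with 1 sign in both populations, at -1.24 ± 0.22. Its -0.67 ± 0.22 in resistant plants was not called here, though the authors' deposited table lists that response. KEG, a ligase of the abscisic acid factor ABI5 in Arabidopsis, changed by -0.28 ± 0.11 in resistant and -0.53 ± 0.11 in susceptible plants, called in the second class. The HECT-type UPL3-like ligase drew the most counts of any member, with medians of 73.6 CPM in sprayed and 72.4 CPM in untreated resistant leaves and 67.7 CPM in sprayed and 80.6 CPM in untreated susceptible leaves. It changed by 0.03 ± 0.06 in resistant and -0.27 ± 0.06 in susceptible plants, called in the second class, where it became 0.05 and lost the call with library totals alone.

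F-box proteins, of which 44 of 46 could be fitted, were called in both directions. In resistant plants 7 were called higher and 4 lower. In susceptible plants 14 were called higher and 18 lower, but 22 higher and 5 lower with library totals alone. The SKIP3-like feature had the largest called increase, 3.23 ± 0.66 in resistant and 2.73 ± 0.64 in susceptible plants, with a median of 1.08 CPM in sprayed and 0.105 CPM in untreated resistant leaves. SKIP11 changed by 0.27 ± 0.08 in resistant and 0.58 ± 0.08 in susceptible plants, both called. Tubby-like F-box proteins, which carry a lipid-binding tubby domain, numbered 5 and were split. Tubby-like protein 8 was called higher in both classes, 3 and 6 were called higher in resistant plants, and 7 and 13 were called lower in susceptible plants, 13 at -0.20, which became 0.11 and lost the call with library totals alone.

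The F-box feature At5g04010 (TRINITY_DN139345_c0_g1_i1.p1) had the largest decrease of all members in susceptible plants. Counts were 16, 12, 58 and 10 in sprayed R2 and 24, 15, 8 and 42 in sprayed R1 leaves, against 79, 78, 94 and 25 in untreated R2 and 58, 60, 22 and 52 in untreated R1 leaves. Sprayed S2 leaves had 4, 4, 4 and 19 counts and sprayed S1 leaves 1, 0, 0 and 0, against 78, 12, 71 and 55 in untreated S2 and 56, 34, 18 and 39 in untreated S1 leaves. Resistant groups overlapped between treatments, while in S1 the groups were far apart. The log2 response was -1.52 ± 0.58 in R2, -1.23 ± 0.58 in R1, -2.67 ± 0.63 in S2 and -6.69 ± 0.94 in S1.

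Some F-box proteins differed in their response between the classes, as estimates without a test. Both reading frames of 1 contig described as PP2-A13, named for a phloem protein domain beside the F-box, were called lower in susceptible plants and not in resistant ones. The one of the larger change had medians of 1.99 CPM in sprayed and 1.69 CPM in untreated resistant leaves, against 1.32 CPM in sprayed and 2.78 CPM in untreated susceptible leaves. Its log2 response was 0.19 ± 0.20 in resistant and -1.12 ± 0.21 in susceptible plants. The LRR-repeat feature At3g26922-like had medians of 1.73 CPM in sprayed and 1.08 CPM in untreated resistant leaves and 0.877 CPM in sprayed and 1.73 CPM in untreated susceptible leaves. The response difference, resistant minus susceptible, was 1.31 ± 0.29 for the PP2-A13 reading frame and 1.38 ± 0.34 for At3g26922-like. MAX2, the F-box protein of strigolactone signalling, showed 0.14 ± 0.09 in resistant and -0.38 ± 0.09 in susceptible plants, called in the second class.

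U-box ligases bind the conjugating enzyme through a RING-like fold without zinc. Of 8 fitted, none was called higher and 1 lower in resistant plants, and 1 was called higher and 3 lower in susceptible plants, or 4 higher and 1 lower with library totals alone. U-box protein 30 changed by -0.37 ± 0.09 in resistant and -0.52 ± 0.09 in susceptible plants, both called.

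The 4 features named for cullins were 2 reading frames of 1 cullin-1 contig, cullin-3A and the cullin-associated protein CAND1, which is not itself a cullin. Of these 4 features 2 were called higher in resistant and 3 in susceptible plants, with none called lower. Both reading frames of the cullin-1 contig, the scaffold of F-box ligases, were called higher in both classes, at 0.34 ± 0.07 and 0.42 ± 0.08 in resistant and 0.43 ± 0.07 and 0.44 ± 0.08 in susceptible plants. Cullin-3A, the scaffold for BTB/POZ adaptors, was not called in either class, at 0.08 ± 0.08 in resistant and -0.11 ± 0.08 in susceptible plants. CAND1, which exchanges the adaptors of cullin ligases, changed by 0.14 ± 0.07 in resistant and 0.25 ± 0.07 in susceptible plants, called in the second class. Of 5 deubiquitinases, enzymes that remove ubiquitin, 1 was called higher in resistant and 4 in susceptible plants, where the called log2 changes ran between 0.24 and 0.84. The fifth, sparse at a mean of 0.226 CPM, showed 2.80 ± 1.15 in resistant plants and was not called in either class. The ubiquitin receptor DSK2a, which carries tagged proteins to the proteasome, changed by 0.32 ± 0.08 in resistant and 0.35 ± 0.08 in susceptible plants, both called. The ATG7 reading frames, whose enzyme activates a ubiquitin-like protein of autophagy, changed by 0.06 ± 0.08 and 0.15 ± 0.10 in resistant and -0.28 ± 0.08 and -0.25 ± 0.10 in susceptible plants. The decrease of the first ATG7 reading frame in susceptible plants was called, but became 0.03 with library totals alone.

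Mean levels of the proteasome subunits were lowest in untreated susceptible leaves. Their summed level over the 9 features was 119.6 ± 6.78 CPM in sprayed R2 and 112.5 ± 3.27 CPM in sprayed R1 leaves, against 106.6 ± 6.15 CPM in untreated R2 and 114.3 ± 16.6 CPM in untreated R1 leaves. In susceptible plants it was 111.6 ± 5.80 CPM in sprayed S2 and 116.1 ± 9.31 CPM in sprayed S1 leaves, against 98.7 ± 3.22 CPM in untreated S2 and 92.09 ± 7.23 CPM in untreated S1 leaves (SD, n = 4 each). Replicate 1 of untreated R1 stood at 136.3 CPM and the other 3 between 96.21 and 113.6 CPM, with a mean of 106.9 ± 9.38 CPM without it (SD, n = 3). That library also had the highest sum of dividing-cell markers (histones and cyclins), 92.1 CPM against at most 51.2 CPM in the other 15 untreated libraries, and their part in the proteasome level was not tested. Of the 9 subunits none was called in resistant plants, where log2 changes ran between -0.03 and 0.15. In susceptible plants 7 were called higher, with changes between 0.14 and 0.52. Called higher were 5.63% of all and 18% of described features in resistant plants, and 13.5% and 42.5% in susceptible plants. In either direction 29.1% of described features were called in resistant and 79.2% in susceptible plants. The same data selected these features, so nothing about the proteasome is read from the counts. With library totals alone all 9 were called higher in susceptible plants.

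Subunit 13 of the regulatory lid (TRINITY_DN4284_c0_g1_i15.p1) changed most among them. It had medians of 3.07 CPM in sprayed and 3.31 CPM in untreated resistant leaves, and 3.33 CPM in sprayed and 2.31 CPM in untreated susceptible leaves. The log2 response was 0.00 ± 0.14 in resistant and 0.52 ± 0.14 in susceptible plants. The class difference, resistant over susceptible, was -0.02 ± 0.14 with spray and 0.51 ± 0.14 without. The call without spray was lost in 14 of 38 alternative settings, among them without untreated R1 replicate 1.

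Listed features of neighbouring complexes were also called more often in susceptible plants. So were described features in general, at 79.2% against 29.1% in resistant plants. The 5 ATPases listed as 26S protease regulatory subunits, which unfold proteins at the mouth of the proteasome, had a median log2 response of 0.05 in resistant plants with none called, and of 0.24 in susceptible plants with all 5 called higher. Of 6 subunits of the COP9 signalosome, which removes the NEDD8 tag from cullins, none was called in resistant plants at a median of 0.23, and 5 were called higher in susceptible plants at a median of 0.51. The same libraries chose the features of these lists, through the authors' tables, so nothing is read from these counts.

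**Figure D3:**
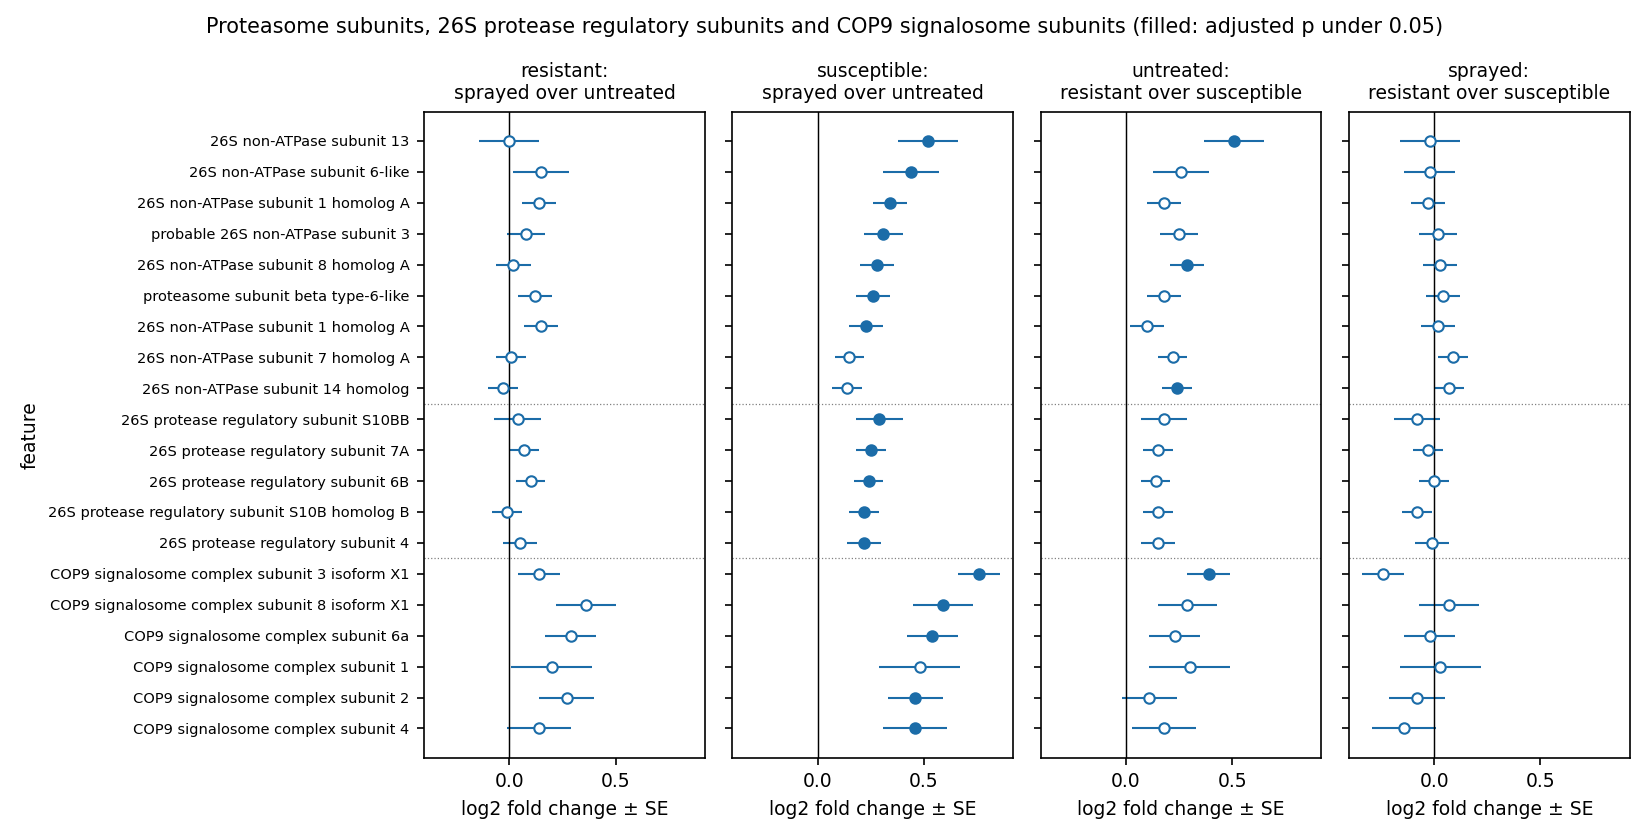
Log2 fold changes with standard errors for 9 proteasome subunits (top), 5 protease regulatory subunits (middle) and 6 COP9 signalosome subunits (bottom) in the responses of resistant and susceptible plants and in the class differences, without spray and with it; filled points had an adjusted p under 0.05. Points stand to the right of 0 in the susceptible response and in the untreated class difference, and close to 0 among sprayed plants.

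Other described members of the pathway were few. All 3 SUMO-pathway features were called higher in resistant plants and 2 in susceptible plants, led by desumoylating isopeptidase 1, which removes the ubiquitin-like protein SUMO, at 2.12 ± 0.21 in resistant and 2.52 ± 0.22 in susceptible plants. Of 10 fitted BTB/POZ proteins 1 was called higher and 4 lower in resistant plants, and 2 were called higher and 3 lower in susceptible plants. Among 3 DCAF proteins, the target receptors of cullin-4 ligases, DCAF 8 changed by 1.98 ± 0.37 in resistant and 2.55 ± 0.36 in susceptible plants, both called, while the DCAF 8-like feature was called lower in susceptible plants at -0.52 ± 0.11. A single C3HC4 zinc finger feature was called lower in susceptible plants, at -0.31 ± 0.09. Searches of the descriptions for NEDD8, SKP1, CDC48, the anaphase-promoting complex, kelch, HECT and ARIADNE gave no further features.

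Between the classes, 5 members were called with spray and 16 without. Among sprayed plants 2 members were called higher and 3 lower in resistant than in susceptible leaves, against 2.3% of all features (1.55% higher and 0.751% lower) and 7.02% of described ones. Without spray 6 were called higher and 10 lower, against 4.12% of all features (2.76% higher and 1.36% lower) and 12.8% of described ones. With library totals alone the untreated split became 22 higher and 4 lower, while the median of all features moved to 0.21. The members called between sprayed classes were the F-box features At5g04010 and At5g46170, higher in resistant plants, and tubby-like protein 8, RGLG2 and the speckle-type POZ protein, lower in them. Over 38 alternative settings At5g04010 and the speckle-type POZ protein kept the call between sprayed classes, while it was lost in 10 settings for At5g46170, in 14 for tubby-like protein 8 and in 19 for RGLG2. Leaving out 1 library moved the sprayed count between 2 and 8. The untreated count fell to 3 without untreated R1 replicate 1, and the calls kept there were those of U-box protein 6-like, At5g46170 and the speckle-type POZ protein, which held in all 38 settings. All settings refit the libraries by which members were chosen, so a kept call is a description and not a test.

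A speckle-type POZ protein (TRINITY_DN58876_c0_g1_i7.p1), whose animal namesake is a cullin-3 adaptor, was lower in resistant plants with and without spray. It had 1.33, 0.945, 1.09 and 0.779 CPM in sprayed R2 and 1.19, 0.848, 1.73 and 1.37 CPM in sprayed R1 leaves, against 2.86, 3.6, 3.20 and 2.54 CPM in sprayed S2 and 0.873, 2.47, 2.11 and 1.45 CPM in sprayed S1 leaves. Untreated, it had 1.02, 0.471, 0.626 and 1.04 CPM in R2 and 0.956, 0.500, 0.955 and 0.815 CPM in R1, against 2.00, 1.61, 2.73 and 1.77 CPM in S2 and 1.72, 1.09, 2.01 and 1.87 CPM in S1. Without spray the classes did not overlap, and with spray only S1 reached into the range of the resistant libraries.

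The F-box feature At5g46170 (TRINITY_DN7407_c1_g1_i2.p1) showed the opposite order. Its median was 3.76 CPM in sprayed resistant against 2.71 CPM in sprayed susceptible leaves, and 3.51 CPM in untreated resistant against 2.34 CPM in untreated susceptible leaves. Untreated libraries did not overlap, with 3.04 CPM as the lowest resistant and 2.70 CPM as the highest susceptible value. The class difference was 0.53 ± 0.13 with and 0.62 ± 0.13 without spray. A second feature of the same description (TRINITY_DN11580_c0_g1_i1.p1) differed by -0.19 ± 0.13 with and -0.45 ± 0.13 without spray, neither of them called here. The authors' deposited table lists its difference without spray.

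Other called class differences without spray were the PP2-A13 reading frames, tubby-like protein 7, U-box proteins 6-like and 27, RING finger protein 5, UPL3-like and the E2-23 kDa enzyme, all lower in resistant plants. Apart from U-box protein 6-like, these calls were lost in 3 to 18 of 38 settings, most often for RING finger protein 5. Proteasome subunits 8, 13 and 14 were called higher in resistant plants, but in 29, 14 and 27 of 38 settings their calls were lost. None of the 9 subunits was called by edgeR without untreated R1 replicate 1 (median log2 difference 0.18, against 0.24 with it), without a filter on low counts or in a fit of only the groups compared, while DESeq2 called 4 and library totals alone gave 9. The F-box feature At5g54820 was higher as well, with its call lost in 7 settings. The F-box feature At1g50870 was lower, at -2.45 ± 0.59, and its call was lost only without untreated R1 replicate 1. The ubiquitin-conjugating enzyme E2 20-like, whose Arabidopsis namesake is expressed in dividing cells, was called higher, at 1.60 ± 0.45, and lost the call in 13 settings. It had 1.12, 1.55, 1.95 and 0.668 CPM in untreated R2 and 6.49, 1.19, 1.70 and 0.313 CPM in untreated R1, against 0.793, 0.293, 0.303 and 0.756 CPM in untreated S2 and 0.397, 0.576, 0.872 and 0.723 CPM in untreated S1. The highest value belonged to R1 replicate 1, the library with the highest sum of the 9 dividing-cell markers, and the call was lost without it. Of 8 fitted dividing-cell markers 5 were called higher in untreated resistant plants, and their part in the E2 20-like difference was not tested.

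Differences between populations of 1 class were not among the 4 comparisons by which members were chosen, and they were tested. The choice still rests on the same libraries, and where the authors pooled the populations of a class, the spread between them bears on it. In sprayed leaves 1 member was called higher and 1 lower in S2 than in S1, or 0.719% of members in each direction, against 0.603% of all features called higher and 0.739% called lower. Among sprayed resistant leaves no member was called higher and 1 lower in R2 than in R1, or 0.719%, against 0.0879% of all features called higher and 0.32% called lower. No member was called by edgeR or DESeq2 between untreated S2 and S1 (0.00799% of all features by edgeR) or between untreated R2 and R1 (0.0399%). In edgeR 10 and 11 members had an unadjusted p under 0.05. These were 7.19% of members against 5.45% of all features, and 7.91% against 7.98%. For the differences between spray responses edgeR called no member for S2 minus S1 (0.028% of all features) or for R2 minus R1 (0.00399%), and DESeq2 called 1 and 0. Here 12 and 7 members had an unadjusted p under 0.05 in edgeR. These were 8.63% of members against 8.2% of all features, and 5.04% against 5.73%. The shares between sprayed populations rest on 2 members and 1 member and lie near the background.

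At5g04010 was the member called higher in sprayed S2. The 4, 4, 4 and 19 counts in sprayed S2 against 1, 0, 0 and 0 in sprayed S1 leaves gave a log2 difference of 4.65 ± 1.03 (edgeR quasi-likelihood test, adjusted p = 0.0222) and a count ratio of 37.5 (95% interval 6.26 to 1530, counting error only). The call was lost without S1 replicate 2, S1 replicate 3 or S2 replicate 4 of the sprayed plants. The adjusted p ran between 0.00391 and 0.102 over the 37 of 38 settings that fitted the feature. The difference in spray response between S2 and S1 was 4.02 ± 1.20 with an adjusted p of 0.318 in edgeR, which missed the threshold. Between sprayed R2 and R1 the difference was -0.05 ± 0.58.

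ATL74-like, a membrane RING-H2 ligase, was the member called lower in sprayed S2. It had 0.170, 0.142, 0.237 and 0.0677 CPM in sprayed S2 against 0.925, 0.338, 0.583 and 0.383 CPM in sprayed S1, so that these groups did not overlap. The log2 difference was -1.82 ± 0.46 (edgeR quasi-likelihood test, adjusted p = 0.0439), and the call was lost in 21 of 38 settings, with adjusted p between 0.0144 and 0.158.

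A feature described only as ubiquitin-like (TRINITY_DN203_c0_g1_i17.p1) was the 1 member called between sprayed R2 and R1. It had 15, 4, 3 and 10 counts in sprayed R2 against 236, 48, 58 and 51 in sprayed R1 leaves, a log2 difference of -3.85 ± 0.82 (edgeR quasi-likelihood test, adjusted p = 0.0266). The call was lost without sprayed R1 replicate 1, without sprayed R2 replicate 2, 3 or 4, and in a fit of only the groups compared. Over 38 settings the adjusted p ran between 0.00107 and 0.137. In the susceptible class sprayed S2 had 1, 46, 4 and 11 counts against 204, 124, 193 and 49 in sprayed S1, a difference of -2.96 ± 0.77 with an adjusted p of 0.0502 in edgeR. Untreated libraries held 0 to 6 counts. The spray response was 3.14 ± 1.15 in R2, 8.04 ± 1.20 in R1, 2.08 ± 0.88 in S2 and 7.64 ± 1.12 in S1, positive in every population.

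**Figure D4:**
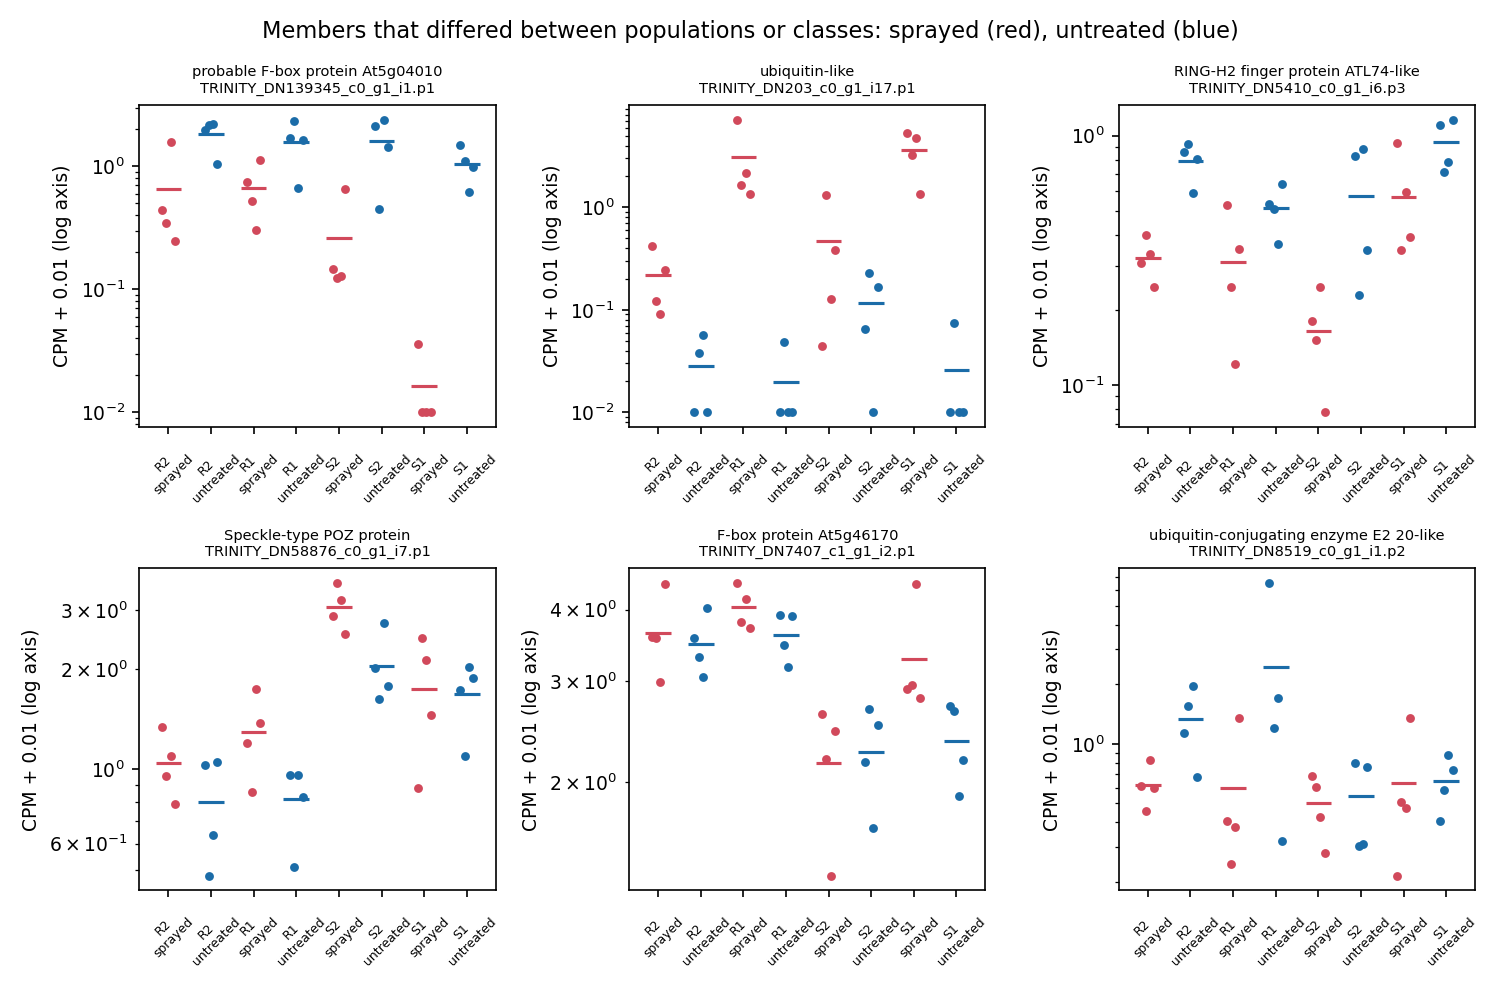
CPM plus 0.01 on a log axis for 6 members in every library, with sprayed leaves in red, untreated leaves in blue, 4 libraries per group and a bar at the group mean. The first 3 panels show the members called between populations of 1 class, and the others show a speckle-type POZ protein lower in resistant plants, an F-box protein higher in them, and an E2 whose highest value is 1 untreated R1 library.

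A few members could not carry a comparison. F-box feature At3g07870-like was too sparse for the fit, with 0 counts in sprayed R2, 19 in sprayed R1, 1 in sprayed S2 and 106 in sprayed S1 leaves over 4 libraries each, and 2 counts in all 16 untreated libraries. The FBD-associated F-box feature At4g10400-like, also not fitted, had 59 counts in sprayed and 28 in untreated resistant libraries, and 58 in sprayed and 20 in untreated susceptible libraries. U-box domain-containing protein 33 isoform X2 appeared in single libraries, with 640 counts in 1 untreated S2 library and 0 in the other 3, and its log2 response of -3.69 ± 4.09 in resistant plants is not interpretable.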

How the data were processed

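RNA from 32 leaf libraries was sequenced as ribosome-depleted, strand-marked total RNA, per the labels' protocols. The authors deposited raw counts per reading frame of an assembly, and a table of log2 fold changes and adjusted p-values for 4 comparisons. Per the submitters' processing notes the tools included STAR 2.5.2b, FastQC 0.11.5 and, under R 3.6.1, DESeq2 1.24.0; how strand and shared reads were counted is not given in the sources used here. Reading frames of 1 contig (5 contigs with 2 members) or of 1 assembly cluster (12 clusters, 26 members) may share reads.

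Counts were fitted here with edgeR 4.0.16 (R 4.3.3): 8 group means, TMM factors, filterByExpr and robust quasi-likelihood, with 24 residual degrees of freedom. Benjamini-Hochberg adjustment ran over 25036 features. Class contrasts weight populations equally. SE is the log2 fold change divided by the root of F. Ratios of few counts carry exact 95% intervals. The script was tested on simulated counts.

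Members and lists were chosen with earlier results of these data known. Named by rule were, per comparison, role and direction, the called member with the largest change at 1 CPM or more and 1 sign in all populations, members called between populations, the most abundant member of each role, and 3 set names; the others named were chosen after their values were seen. No libraries were duplicates. Alternatives were DESeq2 1.42.0, RLE factors, library totals, no filter, only the groups compared, a replicate block, collapsed contigs, adjusted p under 0.01, and each library left out. P-values measure the spread between libraries of 3 pooled plants.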

Additional observations from a re-analysis of the deposited data

Results flagged for a closer look

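Of 264 combinations of 33 named members and 8 groups, 18 held 1 library far from the other 3. Chance gives about 1 in 20 where values vary smoothly. Groups near 0 counts do not vary in this way, so that rate is only a rough guide. The values are CPM. At5g04010 stood out in sprayed R2 (replicate 3 at 1.57, the others 0.236 to 0.435), in sprayed S2 (replicate 4 at 0.643, the others 0.113 to 0.136) and in sprayed S1 (0.0257, which is 1 count, the others at 0). The ubiquitin-like feature stood out in sprayed R1 (replicate 1 at 7.17, the others 1.34 to 2.14) and, through 1 or 2 counts, in untreated R1 (0.0385) and untreated S1 (0.0640). RGLG2 was highest in sprayed R1 replicate 3 at 21.4, and E2 20-like in sprayed R1 replicate 4 at 1.34. ATL1-like had 1.69 in untreated R1 replicate 2 and 0.732, the lowest, in untreated S2 replicate 2.

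In untreated R2, replicate 2 was lowest for RING finger protein 5 at 6.89 and for E1 2 at 4.71, and highest for At5g54820 at 2.66, while replicate 3 was lowest for U-box protein 27 at 6.71. At5g54820 reached 2.70 in sprayed S1 replicate 1 and At5g46170 reached 4.42 in sprayed S1 replicate 3. UPL3-like had 88.7 in untreated S1 replicate 2, and DSK2a-like 29.7 in untreated S2 replicate 3.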

How the results depend on the processing

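The count of members called was 109 in the susceptible response, 44 in the resistant response, 16 between untreated classes, 5 between sprayed classes, 2 between sprayed S2 and S1 and 1 between sprayed R2 and R1. At an adjusted p under 0.01 these became 68, 26, 3, 2, 0 and 0. DESeq2 called 25 between untreated classes, 13 between sprayed classes and 1 for the response of S2 minus that of S1. Library totals alone gave 26 between untreated classes and 4 between sprayed S2 and S1. Without a filter on low counts 10 were called between untreated classes, 3 between sprayed classes and 1 between sprayed S2 and S1. Fitting only the groups compared gave 6 between untreated classes, and 0 between sprayed S2 and S1 and between sprayed R2 and R1. Replicate numbers did not pair the libraries: deviations from the group means correlated at a mean of -0.0063 (range -0.107 to 0.112) between same-numbered libraries of different groups and 0.0021 between the others. A replicate block left 1 of 2 between sprayed S2 and S1; with it 109, 45, 13 and 4 members were called in the other 4 comparisons named first, and none of 3 proteasome subunits kept its call between untreated classes. Leaving out 1 library gave 96 to 111 and 34 to 47 in the responses, 3 to 19 and 2 to 8 between untreated and sprayed classes, 0 to 4 between sprayed S2 and S1 and 0 to 1 between sprayed R2 and R1. Between untreated classes the count moved by over 1.5 times without R1 replicate 1 (3), R2 replicate 1 (10), 2 (5) or 3 (7), S1 replicate 1 (6), 2 (10) or 4 (8), or S2 replicate 1 (9) or 3 (7), all untreated. ATG7 reversed to 0.03 with library totals alone. The cause of these shifts was not tested. Over the members and comparisons named by rule, 1369 alternative values kept their call, 149 lost it and 1 reversed. Among all members called in the susceptible response, 7 changed sign with library totals alone, UPL3-like and tubby-like protein 13 among them. The speckle-type POZ protein stayed called in both class comparisons in all 38 settings. It was chosen by these comparisons in the same libraries, so its kept calls are no test. Members below about 1 CPM rest on few counts.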

Other observations

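Among sprayed leaves, some members had more counts in R1 and S1 than in R2 and S2. Those named here, 2 of them F-box proteins, were not the only ones. An EL5-like ligase (TRINITY_DN16178_c0_g1_i13.p1) had 161 counts in sprayed R2 against 317 in R1, and 317 in S2 against 541 in S1. How many of all features had this order was not counted. Besides the ubiquitin-like feature and the sparse F-box feature At3g07870-like, F-box protein SKIP3-like had 69, 7, 14 and 29 counts in sprayed R2 against 202, 20, 133 and 56 in sprayed R1, and 7, 60, 8 and 18 in sprayed S2 against 65, 150, 144 and 65 in sprayed S1. For SKIP3-like the log2 difference was -2.07 ± 0.82 between sprayed R2 and R1 (adjusted p = 0.353 in edgeR) and -1.95 ± 0.82 between sprayed S2 and S1 (adjusted p = 0.284), and neither passed the threshold. These members were picked after their values were seen.

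The RBR-type ligase RNF14 had 129 counts in sprayed and 130 in untreated resistant libraries, against 170 in sprayed and 42 in untreated susceptible libraries, and its response difference, resistant minus susceptible, was -2.06 ± 0.74 as an estimate without a test.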
